A study of Mus musculus with 4 samples.

Results

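The nuclei described here are Bcl11b+ Fezf2+ nuclei of the embryonic mouse neocortex, chosen with a marker gate meant to take layer 5 subcerebral projection neurons. A nucleus was selected on its raw transcript counts when it held at least 3 Bcl11b and at least 2 Fezf2 transcripts, at most 2 of Hs3st4, at most 1 each of Cux2 and Inhba, none of Gad1, Gad2 or Eomes, at most 1 of Mki67 and Top2a together and at most 2 of Slc1a3. The gate took 527 of the 29656 retained nuclei, of which 155 and 203 came from the Dnmt1 KO libraries, 85 and 84 from the controls. They are called layer 5 nuclei below, with the limits of that name given with the marker check.

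Layer 5 subcerebral projection neurons are the large pyramidal cells that send axons out of the cortex to the brainstem and spinal cord. Fezf2 is the transcription factor that sets their fate, and Bcl11b (Ctip2), acting downstream of it, is needed for the outgrowth of their axons. Tle4 and Hs3st4 mark the corticothalamic neurons of layer 6, and Cux1 and Cux2 mark the upper layers.

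The data are single-nucleus RNA-sequencing profiles of the medial neocortex of E16.5 embryos, with 2 libraries per genotype and 1 brain in each library. The control embryos were Sst-Cre/tdTomato, and the Dnmt1 KO embryos were Sst-Cre/tdTomato/Dnmt1 loxP2, so both groups carried the Sst-driven Cre and the tdTomato reporter on a C57BL/6J background. The recombination was directed at somatostatin-lineage interneurons, which the gate leaves out, so the genotype comparison asks what differed in excitatory neurons that were not themselves targeted. Control replicate 2 was made in batch 2 with 2 sublibraries, and the other 3 libraries in batch 1 with 8 sublibraries each, and in both genotypes replicate 1 expressed Xist and replicate 2 Uty, the marks of a female and a male. The p-values measure the spread between these brains alone.

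Depth was uneven. The median retained nucleus held between 12274 and 12401 transcripts in batch 1 and 21140 in control replicate 2, and the layer 5 nuclei held medians of 17148 and 17218 in the Dnmt1 KO and 19477 and 30185 in the controls. The summed layer 5 profiles rest on 2699043 and 3645280 transcripts in the Dnmt1 KO and on 1638547 and 2634847 in the controls. Levels below are CPM, the transcripts of a gene scaled by all transcripts of the summed nuclei of a library, a scale on which a gene can be compared between sets of nuclei but not with another gene. No retained barcode was shared between libraries, and 3 of the 527 nuclei were called doublets.

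The gate values themselves describe the choice and are no finding. The layer 5 nuclei held a median of 11 Bcl11b and 3 Fezf2 transcripts, with maxima of 70 and 10. Of 2612 nuclei that met the Bcl11b and Fezf2 minima, 1655 failed on Hs3st4, and 984 of these failed on nothing else, which makes Hs3st4 the criterion that removed most. At the edge of the gate, 239 members held exactly 2 Fezf2 transcripts while 442 nuclei that met every other criterion held 1, and 36 members held exactly 3 Bcl11b transcripts while 40 such nuclei held 2. Fezf2 counts were therefore low enough that a single transcript decided membership for many nuclei.

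Ldb2, a LIM-domain cofactor that marks subcerebral neurons and that the gate did not use, was high in the summed layer 5 profiles. Its level in layer 5 nuclei was 1480 and 2027 CPM in the Dnmt1 KO and 1768 and 1660 CPM in the controls. All other retained nuclei held 534 to 690 CPM, the layer 6 comparison nuclei (at least 3 Hs3st4 transcripts under the same negative criteria, 3723 nuclei) 992 to 1160 CPM, and the upper-layer comparison nuclei (chosen on Cux2, at least 2 transcripts, with further criteria that included at most 1 Fezf2 and at most 2 Hs3st4 transcripts, 4210 nuclei) 195 to 344 CPM. The layer 5 value was the higher one in every library in each of these comparisons. Tcerg1l, the other marker outside the gate, was 7.04 and 86.4 CPM in the Dnmt1 KO and 25 and 138 CPM in the controls. It was higher than in all other retained nuclei in each library, but its 4 libraries spread far more than those of Ldb2, and in control replicate 1 it was below the layer 6 value of 25.4 CPM. Per nucleus, 421 of the 527 held at least 1 Ldb2 transcript (79.9%), 351 at least 10 (66.6%), and 79 at least 1 of Tcerg1l (15%). Both markers were found in 68 nuclei (12.9%), so most members did not show the pair. The layer 5 subcerebral list as a whole, 18 genes with none in the gate, was divided. Against the layer 6 nuclei 5 of its genes were higher in all 4 libraries and 4 were lower (Pcp4, Cntn6, Ephb1 and Npr3), and against all other nuclei 6 were higher and 4 lower.

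Genes of the neighbouring layers were mixed. All 7 layer 6 genes outside the gate were lower than in the layer 6 nuclei in all 4 libraries, and of 12 upper-layer and callosal genes outside the gate 7 were lower and 5 higher than in the upper-layer nuclei. Tle4, a corepressor of the layer 6 programme, was 150 and 229 CPM in the Dnmt1 KO and 194 and 77.8 CPM in the controls, against 1334 to 1857 CPM in the layer 6 nuclei. Cux1 was 25.8 to 39.7 CPM, against 880 to 1460 CPM in the upper-layer nuclei. The higher upper-layer genes were Rorb, Mdga1, Lmo4, Nectin3 and Plxnd1, among them the LIM factor gene Lmo4 at 60.4 to 101 CPM against 28.4 to 42.2 CPM and the adhesion gene Nectin3 at 128 to 180 CPM against 55.2 to 121 CPM. Sox5, which keeps deep-layer neurons from an early corticofugal switch, was 5902, 7507, 7920 and 5408 CPM and overlapped the layer 6 range of 6148 to 8407 CPM. Summed, the layer 6 list came to 6102 to 9505 CPM, below the 17744 to 21524 CPM of the layer 6 nuclei and overlapping the 6397 to 7578 CPM of all other nuclei. Hs3st4 and Cux2, on which the comparison sets were chosen, were capped by the gate and so say nothing here.

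**Figure D1:**
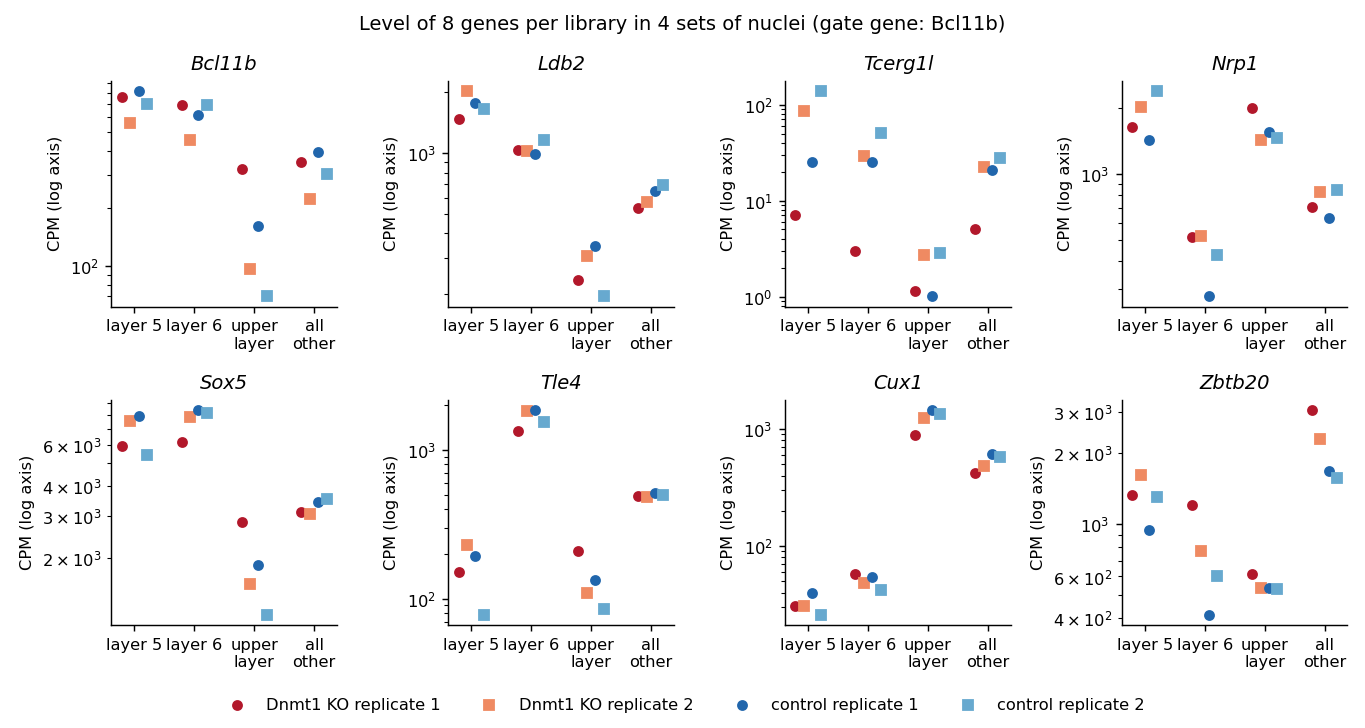
CPM (log axis) of 8 genes in the layer 5 nuclei, the layer 6 and upper-layer comparison nuclei and all other retained nuclei, with 1 point per library. Ldb2 sits at 1480 to 2027 CPM in layer 5 nuclei, above the 3 other sets in every library, while Tcerg1l spreads from 7.04 to 138 CPM and Zbtb20 is at 947 to 1617 CPM in the layer 5 profiles.

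The 18 genes of the layer 5 subcerebral list summed to 3762 to 4299 CPM, above the 2251 to 2543 CPM of all other nuclei and overlapping the 3461 to 4250 CPM of the layer 6 nuclei. Interneuron genes summed to 8.35 to 21.7 CPM against 615 to 1433 CPM elsewhere, with Gad1 and Gad2 at 0 by the gate. Radial glia genes summed to 28.1 to 50.7 CPM against 312 to 413 CPM, a sum that includes Slc1a3, which the gate caps and which gave 11.4 to 22 CPM of it. The 8 radial glia genes outside the gate were each lower than in all other nuclei in all 4 libraries, as were 6 of the 7 interneuron genes outside it. All other nuclei keep the interneurons and progenitors that the gate removes, so these contrasts follow from the choice. Against the layer 6 nuclei, 1 of the 8 radial glia genes was lower and 3 were higher in all 4 libraries. Of the 7 interneuron genes, 1 was lower and 0 were higher there. Pcp4 and Igfbp4, both markers of mature layer 5 neurons, were also near 0. No other age was sampled, so a part of age in this was not tested. Pcp4, a calmodulin regulator of adult subcerebral neurons, had 9, 7, 0 and 2 transcripts in the 4 summed profiles, and Igfbp4 had 8, 9, 4 and 3.

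Relative to all other retained nuclei, 17 of 3467 genes with a mean of at least 50 CPM were at least 2-fold higher in every library (0.49%), and 196 were at least 2-fold lower (5.65%). These contrasts involve the cells that the gate selected, so they are a description with no test. Among the higher genes, Nrp1, a receptor for semaphorins, was 1627, 2007, 1431 and 2373 CPM against 632 to 844 CPM. The upper-layer nuclei held as much of it, at 1431 to 1989 CPM. Ryr3, an intracellular calcium release channel, was 1258, 1922, 1902 and 1753 CPM against 521 to 673 CPM. In the layer 6 nuclei Ryr3 was 1163 to 1347 CPM, and in Dnmt1 KO replicate 1 it was not below the layer 5 value. Camk4, a calcium-dependent kinase of neuronal nuclei, stood 2.52 to 2.86 times the level elsewhere, and the adhesion molecule gene Opcml 2.99 to 4.09 times. The other leading genes were Nr4a3, Chst8, Slit3, Runx1t1, Slc1a1, Slc4a4, Msra and Slc35f3, beside Ldb2. Of these, Slc35f3 alone was not above the layer 6 level in every library, at 0.838 to 1.2 times. Slc1a1 and Chst8 came to 1.17 and 1.27 times that level in their lowest library. Among the lowest ratios were Erbb4, at 0.0089 to 0.0175 times, and Gli3, at 0.0287 to 0.0353 times the level elsewhere.

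Against the layer 6 nuclei, 40 of 3167 genes were at least 2-fold higher in every library (1.26%) and 123 at least 2-fold lower (3.88%). Ntm, an adhesion molecule of the same family as Opcml, was 4994, 2967, 3698 and 5055 CPM in layer 5 nuclei and 750 to 1091 CPM in layer 6 nuclei. Slc4a4, a bicarbonate transporter, stood 4.33 to 6.74 times the layer 6 level. Nrp1 stood 3.11 to 5.52 times and the type II cadherin gene Cdh8 3.08 to 3.28 times the layer 6 level, the latter being the narrowest of these ranges. The upper-layer nuclei were closer. Against them Cdh8 stood 0.54 to 1.26 times, Nrp1 0.82 to 1.62 times, Ntm 1.21 to 2.08 times and Slc4a4 1.76 to 1.98 times. Among the lower genes, Dpp10, a potassium channel partner, was 53.5 to 74.1 CPM against 1694 to 2869 CPM. Prickle1, a planar polarity gene, stood 0.0494 to 0.097 times the layer 6 level.

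Against the upper-layer nuclei, 156 of 3309 genes were at least 2-fold higher in every library (4.71%) and 104 at least 2-fold lower (3.14%). Cacna1e, the R-type calcium channel, was 1445, 1270, 1396 and 1216 CPM in layer 5 nuclei and 88 to 137 CPM in upper-layer nuclei. The layer 6 nuclei held more of it, at 1699 to 2148 CPM. Pcsk5, a proprotein convertase, stood 19.4 to 33.1 times the upper-layer level and 0.495 to 1.19 times the layer 6 level. Unc5d and Plxna4, guidance receptors of late-born neurons, were lower, at 0.0402 to 0.0662 and 0.0685 to 0.0939 times the upper-layer level.

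The gated nuclei were not one uniform population. Zbtb20, a zinc finger repressor best known from hippocampal neurons and glia, was 1329 and 1617 CPM in the Dnmt1 KO and 947 and 1308 CPM in the controls. Its transcripts were unevenly distributed. Of the 527 nuclei, 168 held none, 209 held 1 to 9 and 150 held 10 or more. The split at 10 was set after these counts were seen. Nuclei with 10 or more were 27.1% and 29.6% of the layer 5 nuclei in the Dnmt1 KO, against 18.8% and 38.1% among controls, so the genotypes overlapped, with the controls at both ends. Among the layer 6 nuclei the shares were 18.4% and 13.5% in the Dnmt1 KO and 7.71% and 11.5% in the controls, without overlap. Depth did not separate the classes, since the median nucleus with 10 or more held 19817, 17186, 19464 and 27468 transcripts and the others 16606, 17225, 19477 and 30866.

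The Zbtb20-high nuclei went against the layer 5 label. Their Ldb2 level was 318 and 661 CPM in the Dnmt1 KO and 626 and 520 CPM in the controls, while the remaining nuclei held 2009, 2663, 2040 and 2305 CPM. Sox5 was 2002 to 2809 CPM in the Zbtb20-high nuclei and 7309 to 9913 CPM in the others. Mef2c, a transcription factor of maturing cortical neurons, was 19.9 to 227 CPM against 608 to 893 CPM. In each case all 4 libraries went the same way and the ranges did not overlap. Higher in the Zbtb20-high nuclei were Zfp385b (1041 to 1238 CPM against 15.3 to 123 CPM), the secreted guidance cue gene Sema3c (519 to 651 against 18.9 to 39 CPM), its receptor gene Nrp2 (813 to 1220 against 72.2 to 183 CPM) and the ligand gene Slit3 (4466 to 5295 against 722 to 1733 CPM). Lower were the M-current channel gene Kcnq5 (39.9 to 234 against 1413 to 2674 CPM), Tshz3, a transcription factor of corticofugal neurons (7.35 to 63.5 against 195 to 427 CPM), and the cadherin gene Cdh13 (248 to 741 against 2803 to 4615 CPM). Prox1, the granule cell factor of the dentate gyrus, was at or near 0 in both classes, at no more than 2.27 CPM. Slit3, one of the leading genes of the gated nuclei as a whole, was thus unevenly spread over them. So were Nrp1, at 2.19 to 3.2 times the level of the other members, and Ryr3, at 0.327 to 0.376 times. Opcml overlapped between the classes, at 10758 to 15885 and 11673 to 16988 CPM. Ldb2 therefore followed the layer 5 label in the nuclei with fewer than 10 Zbtb20 transcripts and not in the other 150, which are called Bcl11b+ Fezf2+ Zbtb20-high nuclei, with no cell type name. They were kept in the comparisons below, and the values without them are given with the limits.

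**Figure D2:**
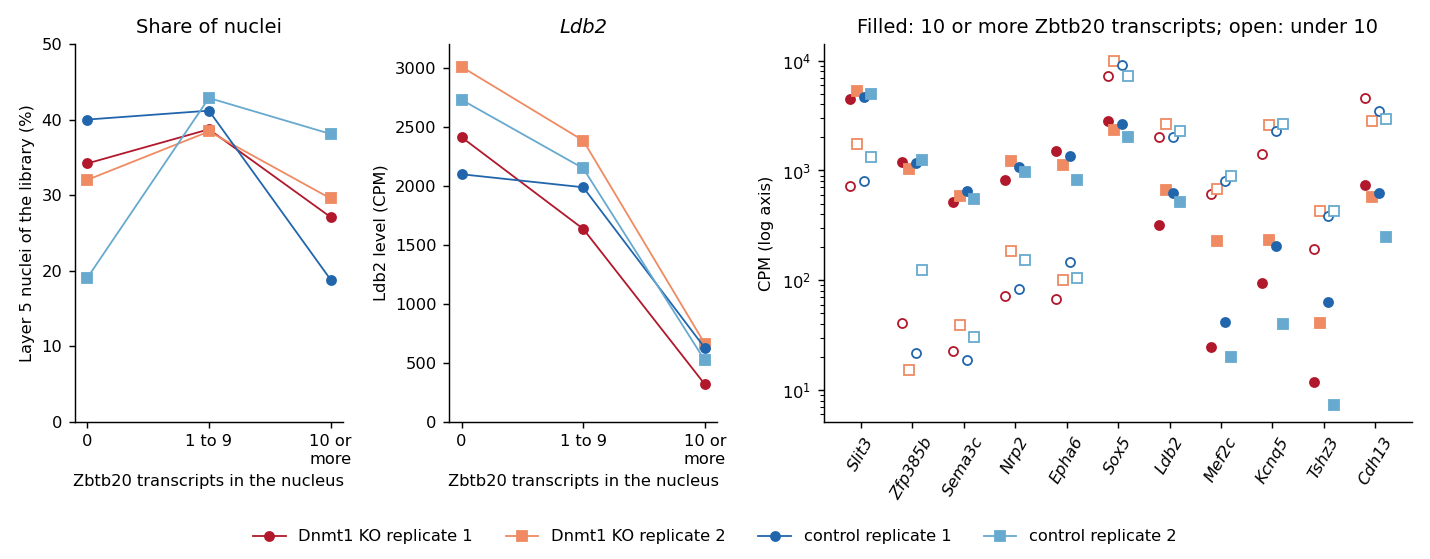
Left, share of the layer 5 nuclei of each library (percent) in 3 classes of Zbtb20 transcripts per nucleus; centre, Ldb2 level (CPM) in the same classes; right, CPM (log axis) of 11 genes in nuclei with 10 or more (filled) and under 10 (open) Zbtb20 transcripts. Ldb2 is at 318 to 661 CPM in the highest class of every library and at 1634 CPM or more in the other classes, and Slit3, Zfp385b, Sema3c, Nrp2 and Epha6 lie on the opposite side from Sox5, Ldb2, Mef2c, Kcnq5, Tshz3 and Cdh13.

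The abundance of layer 5 nuclei was compared between genotypes as a share of nuclei, with libraries as replicates. Their share of all retained nuclei was 2.75% (155 of 5640, with an exact 95% binomial interval from 2.34 to 3.21) and 1.68% (203 of 12064, from 1.46 to 1.93) for Dnmt1 KO brains. Control brains gave 1.21% (85 of 7047, from 0.965 to 1.49) and 1.71% (84 of 4905, from 1.37 to 2.12). The groups overlapped, since Dnmt1 KO replicate 2 lay just under control replicate 2. Excitatory nuclei met the Gad1, Gad2, Eomes, Mki67, Top2a and Slc1a3 criteria and held at least 2 Neurod2 and Neurod6 transcripts together. This cut depends on depth. Layer 5 nuclei among them numbered 135 and 154 in the Dnmt1 KO and 73 and 82 in the controls. Their share of excitatory nuclei was 7.05% and 4.35% against 3.56% and 3.94%, without overlap (exact permutation p = 0.3333). The groups also did not overlap with the Zbtb20-high nuclei taken out of the numerator alone (2% and 1.19% against 0.979% and 1.06%) or with nuclei retained by mapped reads (2.45% and 1.67% against 1.13% and 0.792%), each with an exact permutation p of 0.3333. They overlapped with doublets left out, after each nucleus was thinned to 6000 transcripts (0.831% and 0.459% against 0.529% and 0.52%, exact permutation p = 1) and under stricter minima of 5 Bcl11b and 3 Fezf2 transcripts (1.28% and 0.721% against 0.624% and 0.979%, exact permutation p = 0.667). The window on mapped reads took control replicate 2, with 2.54 reads per transcript against 1.64 to 1.65 in the others, from 84 to 38 layer 5 nuclei, while the other libraries held 153, 201 and 85. The mean was 2.22% ± 0.753 in the Dnmt1 KO and 1.46% ± 0.358 in the controls (SD, n = 2 each), which are 0.756 points apart (p = 0.667, exact permutation test, two-sided). With 2 libraries per genotype the smallest p that this test allows is 0.3333. Within batch 1 alone, the 2 Dnmt1 KO libraries exceeded control replicate 1 by 1.01 points. The intervals cover counting error only.

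As a share of layer 5 and layer 6 nuclei together, a ratio within the deep layers, the layer 5 nuclei came to 16.2% and 12.5% in the Dnmt1 KO and to 10.2% and 10.1% in the controls. These groups did not overlap, with both Dnmt1 KO libraries above both controls. The difference was 4.25 percentage points, from 14.4% ± 2.66 to 10.1% ± 0.0504 (SD, n = 2 each; exact permutation p = 0.3333, the smallest possible). The groups also did not overlap without doublets, or with nuclei retained by mapped reads, where control replicate 2 was at 4.58% with its 38 nuclei. Nor did they with the Zbtb20-high nuclei taken out of the layer 5 but not the layer 6 nuclei (12.4% and 9.13% against 8.4% and 6.49%). They did overlap after thinning and under stricter minima. After thinning, which left out between 290 and 953 shallower nuclei of a library, the shares were 4.94% and 3.15% in the Dnmt1 KO and 3.76% and 2.89% in the controls. Under the stricter minima they were 8.27% and 5.76% against 5.53% and 6.02%. In both of these cases Dnmt1 KO replicate 1 was the highest library.

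**Figure D3:**
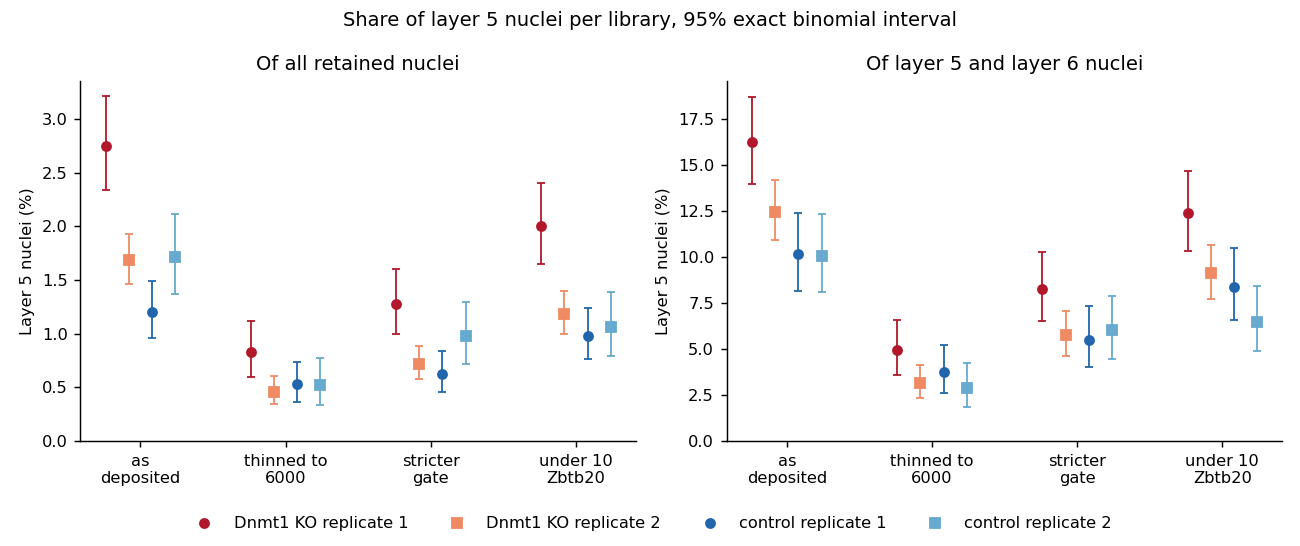
Layer 5 nuclei per library as a percentage of all retained nuclei (left) and of layer 5 and layer 6 nuclei (right), with exact 95% binomial intervals. The settings are the gate on the deposited counts, on counts thinned to 6000 transcripts, with stricter minima, and without layer 5 nuclei of 10 or more Zbtb20 transcripts. In the last setting such nuclei stayed among the retained and the layer 6 nuclei. Dnmt1 KO replicate 1 is the highest library throughout, and the genotypes overlap after thinning and under the stricter minima in both panels and for the deposited counts in the left panel.

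No gene passed the genotype test within the layer 5 nuclei. Of 10191 genes tested with edgeR's quasi-likelihood test on the summed counts, 0 had a Benjamini-Hochberg adjusted p under 0.05 (0%), and the smallest adjusted p was 0.9999. At an unadjusted p under 0.05, 134 genes were estimated higher (1.31%) and 198 lower (1.94%) in the Dnmt1 KO, together 332. DESeq2 called 0 genes on the same table and had 71 with an unadjusted p under 0.05. In data simulated with a spread read from its trend over genes, the test recovered 45 of 50 genes raised 4-fold and 12 of 50 raised 2-fold. Of lowered genes it recovered 33 of 50 at 0.25 times and 6 of 50 at 0.5 times the level. Changes near 2-fold were thus for the most part not detectable with these libraries. The simulation left out each gene's own spread, so its counts can be too high for the real data. There, Ryr2 at an estimate of 2.33 was not called. Leaving out 1 library moved the count, to 7 genes without Dnmt1 KO replicate 1, all higher, to 9 without Dnmt1 KO replicate 2, all lower, and to 1 without control replicate 2. The layer 6 nuclei of the same libraries gave 0 of 15178 genes (0%), with 925 at an unadjusted p under 0.05. Values are therefore described below with their estimates and standard errors, all at an adjusted p of 0.9999 in edgeR, and none of them is a call. Fewer transcripts of a gene per nucleus and fewer nuclei that use it cannot be told apart in summed counts.

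Dnmt1 itself was 53.7 and 42 CPM in the layer 5 nuclei of the Dnmt1 KO and 43.3 and 43.3 CPM in those of the controls, and the genotypes overlapped. These cells were not the targets of the deletion, and counts per gene do not separate the exons that it removes. Of the 8 DNA methylation genes tested, the median estimate was 0.01 on the log2 scale.

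Of the layer 5 subcerebral list, 14 of 18 genes were tested and 12 of the 14 had estimates below 0, where 50.2% of all genes did. The list's median was -0.45 and that of all genes -0.0019. Pou3f1, a POU factor of subcerebral neurons, was 1.11 and 2.47 CPM in the Dnmt1 KO and 7.32 and 11.8 CPM in the controls, an estimate of -2.35 ± 0.53 (log2, SE) from 3 and 9 against 12 and 31 transcripts. Bhlhe22, a basic helix-loop-helix factor of area identity and corticospinal axons, was 23.3 and 16.46 CPM against 34.2 and 56.5 CPM (-1.22 ± 0.3). Its estimate was also below 0 in the layer 6 nuclei of the same brains (-0.81 ± 0.25). Etv1, a marker of layer 5 neurons, was 1.85 and 10.4 CPM against 20.1 and 19.4 CPM. These 3 genes, 2 of them with an unadjusted p under 0.05, were the list members whose libraries did not overlap and were all lower, where 16.3% of all genes were lower without overlap and 14.8% higher. Ldb2 lay near 0, at 1480 and 2027 CPM against 1768 and 1660 CPM (0.04 ± 0.24). The calcium-activated potassium channel gene Kcnn2 overlapped, at 960 and 371 CPM against 579 and 527 CPM. The median of the list rested on the batch 2 library, being -0.06 within batch 1, where 9 of the 14 estimates were below 0. With batch as a term the median was also -0.06, which is the same contrast, since batch 2 holds 1 library. Without Dnmt1 KO replicate 1 it was -0.27, with 8 of 14 below 0, and without Dnmt1 KO replicate 2 it was -0.88. Within batch 1 the estimate was -1.96 for Pou3f1 and -0.8 for Bhlhe22.

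The genes of the neuronal cytoskeleton and maturation list gave 18 tested members with a median of -0.11, of which 6 were lower and 1 higher without overlap (16.3% and 14.8% of all genes). Tubb3, the neuron-specific beta-tubulin, was 44.5 and 49.9 CPM in the Dnmt1 KO and 78.1 and 83.1 CPM in the controls (-0.77 ± 0.17). Sox11, a transcription factor of newly formed neurons, was 311 and 290 CPM against 408 and 497 CPM (-0.59 ± 0.17). Its relative Sox4 was 82.3 and 97.4 CPM against 139 and 132 CPM (-0.59 ± 0.16). In each of these genes both Dnmt1 KO libraries lay under both controls by more than the distance between replicates of either genotype. Outside the list, and picked for separated libraries, were Tubb5 at 46.7 and 49.1 CPM against 80.6 and 72.5 CPM and Tubb2b at 42.2 and 45.3 CPM against 65.3 and 69.5 CPM, and the chaperone gene Hsp90ab1 at 70 and 68.9 CPM against 104 and 99.8 CPM. Tubulin genes are close in sequence, so their counts are uncertain where reads could be shared. Other members of the list, among them Map2 (2275 and 2094 CPM against 2153 and 2024 CPM) and Mapt (468 and 581 CPM against 472 and 577 CPM), overlapped between the genotypes. In the layer 6 nuclei of the same brains the estimates were -0.65 ± 0.17 for Tubb3, -0.58 ± 0.1 for Tubb5, -0.6 ± 0.15 for Tubb2b and -0.46 ± 0.11 for Hsp90ab1. Within batch 1 the layer 5 estimates were -0.73 for Tubb3, -0.45 for Sox11 and -0.63 for Sox4.

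Callosal and upper-layer genes, which compete with the subcerebral programme, had a median of -0.2 over 12 tested genes, which turned to 0.14 over the 8 genes still tested after thinning. The 3 members that were lower without overlap, where 16.3% of all genes were, were Plxna4 and a pair of POU factors. Pou3f2 was 14.1 and 10.7 CPM against 22.6 and 20.1 CPM (-0.79 ± 0.26) and Pou3f3 57.8 and 54 CPM against 72 and 104 CPM (-0.66 ± 0.21). Plxna4 was 391 and 351 CPM against 556 and 414 CPM. For Pou3f3 the estimate within batch 1 was -0.38.

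Genes for axon guidance receptors, with 22 tested, had a median of -0.02, and 10 estimates lay above 0 and 12 below. After thinning the median was 0.29, with 13 above and 6 below of 19 tested. L1cam, the adhesion molecule of corticospinal axons, was the only member with an unadjusted p under 0.05, at 198 and 204 CPM in the Dnmt1 KO and 146 and 159 CPM in the controls (0.4 ± 0.14). Plxna3, a semaphorin coreceptor, was 91.1 and 91.1 CPM against 75.7 and 71.4 CPM, also without overlap. On the other side, Igf1r, the receptor for insulin-like growth factor, was 655 and 591 CPM against 688 and 709 CPM, and Plxna4 is given above. The list thus had 2 higher and 2 lower members without overlap, beside 14.8% and 16.3% of all genes. The netrin receptor gene Dcc was 7865 and 4085 CPM against 4866 and 3427 CPM, with Dnmt1 KO replicate 1 above the other 3.

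Receptors through which the layer 5 neurons could read interneuron signals were examined because the deletion was directed at interneurons. Of 20 genes, 16 were tested, with a median of -0.03, 8 estimates above and 8 below 0, and none with an unadjusted p under 0.05. This balance moved with single libraries, to 13 above and 3 below 0 without Dnmt1 KO replicate 1 (median 0.18) and to 5 above and 11 below without Dnmt1 KO replicate 2 (median -0.29). Without overlap, 4 members were higher and 1 lower (14.8% and 16.3% of all genes). Gabbr1 and Gabbr2, the subunits of the GABA-B receptor, were 123 and 111 CPM against 105 and 98.7 CPM and 177 and 211 CPM against 165 and 172 CPM. The lower member was Nlgn1, a postsynaptic adhesion molecule, at 8449 and 7577 CPM against 8678 and 9705 CPM. Gabrg3, a GABA-A receptor subunit gene, was 24.8 and 34 CPM against 22.6 and 15.2 CPM. Gabra2 overlapped at 705 and 1062 CPM against 586 and 996 CPM. The somatostatin receptor genes Sstr1 to Sstr4 had too few transcripts to be tested. Glutamate synapse genes (18 tested, median -0.03) and ion channel genes (20 tested, median -0.0078) likewise had no member with an unadjusted p under 0.05. The glutamate synapse median was 0.24 without Dnmt1 KO replicate 1 and -0.3 without Dnmt1 KO replicate 2.

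**Figure D4:**
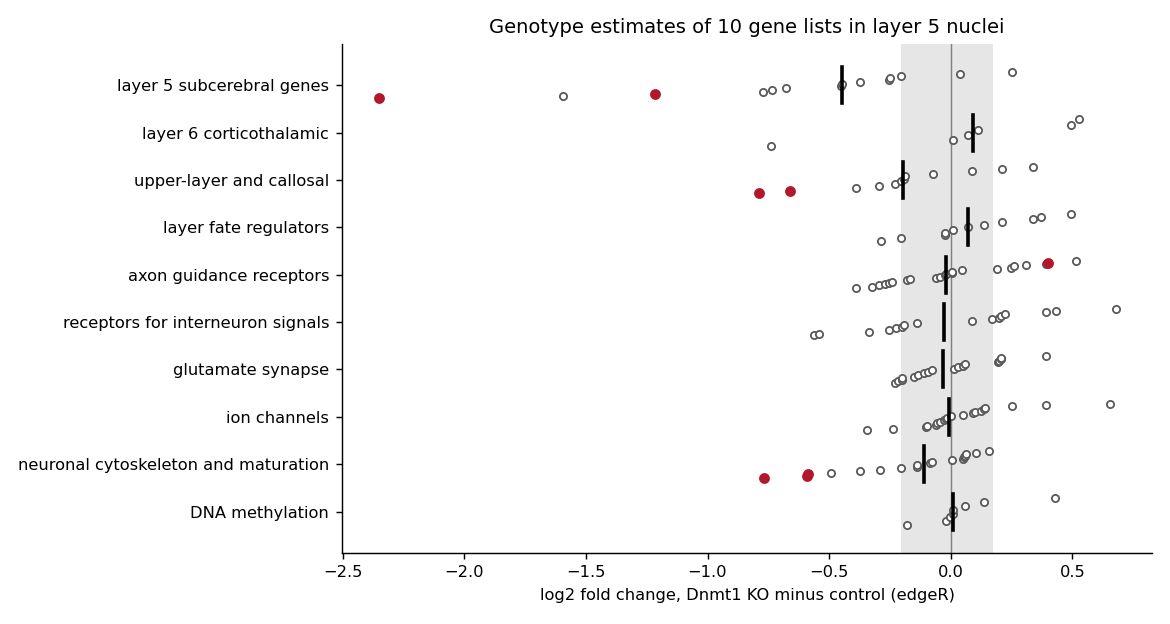
Genotype estimate (log2 fold change, Dnmt1 KO minus control) of each tested gene in 10 gene lists, with a black bar at the list's median, red points for an unadjusted p under 0.05 and grey shading between the quartiles of all 10191 genes (-0.2 to 0.17). Of these lists the layer 5 subcerebral one lies furthest from 0, with a median of -0.45, and the channel, synapse and receptor lists centre near 0.

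Marker lists of other cells gave the following between genotypes. Subplate genes summed to 13.3 and 208 CPM in the Dnmt1 KO and 58.6 and 54.7 CPM in the controls, with Ccn2 and Cplx3 at 0 in all 4 libraries. Cajal-Retzius genes summed to 38.9 and 177 CPM against 16.48 and 44 CPM, where Reln made up most, at 37.8 and 164 CPM against 15.3 and 43.6 CPM. Both sums were highest in Dnmt1 KO replicate 2, which held 2 of the 3 called doublets, and with the doublets left out the Reln estimate went from 1.76 to -0.14. The part of these genes in the other results was not tested. Hippocampal genes summed to 1400 and 1700 CPM against 992 and 1393 CPM, with Zbtb20 as their main member. This sum was also higher in both Dnmt1 KO libraries among the layer 6 nuclei (1535 and 984 against 614 and 793 CPM). Among all other retained nuclei it was 3290 and 2568 against 1875 and 1745 CPM. Its bearing on the shares of layer 5 nuclei was not tested. Striatal genes summed to 784 to 927 CPM over the 4 libraries and glial and vessel genes to 4.82 to 11 CPM.

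Beyond the lists, the genes at 20 CPM or more without overlap were ranked by unadjusted p in each direction. Those higher in the Dnmt1 KO were led by Ryr2, the cardiac-type calcium release channel also used by neurons, at 35.2 and 31.8 CPM in the Dnmt1 KO and 11 and 3.42 CPM in the controls (2.33 ± 0.47). Carmil3, an actin capping regulator of dendritic spines, was 112 and 105 CPM against 66.5 and 72.5 CPM (0.64 ± 0.14). Ide, the insulin-degrading enzyme, was 38.9 and 31.5 CPM against 15.3 and 19.7 CPM (0.99 ± 0.22). The sodium-activated potassium channel gene Kcnt2 was 280 and 246 CPM against 176 and 170 CPM, and the sorting nexin gene Snx1 87.4 and 80.7 CPM against 52.5 and 56.9 CPM. In all of these the replicates of a genotype lay closer to each other than to the other genotype, with the widest relative spread between the controls of Ryr2. The other higher genes of this set were 6530403H02Rik, St18, Gm32647, Trpc7, Smg9, Plxdc2 and 6030443J06Rik. Gm32647, a long noncoding RNA, was 205 and 578 CPM against 79.9 and 116 CPM, and it is also a gene of the Zbtb20-high nuclei, where it stood 22.3 to 59.3 times the level of the other members.

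On the lower side, Enc1, an actin-binding Kelch gene of developing neurons, was 31.1 and 35.1 CPM in the Dnmt1 KO and 90.9 and 65.3 CPM in the controls (-1.23 ± 0.23). Akap1, a mitochondrial anchor of protein kinase A, was 16.7 and 14.3 CPM against 25.6 and 32.6 CPM (-0.93 ± 0.23). Dok5, a docking protein, was 115 and 100.1 CPM against 148 and 168 CPM (-0.56 ± 0.14). The potassium channel gene Kcnh5 was 13.3 and 11.5 CPM against 36 and 21.3 CPM. Cmss1 was 178 and 244 CPM against 460 and 670 CPM (-1.41 ± 0.27), and since its locus overlaps Filip1l on the opposite strand the assignment of its counts is uncertain. The remaining lower genes were 9130024F11Rik and Lsm12. All 24 genes were picked for their p and their separated libraries, so their separation is a property of the choice. In the layer 6 nuclei each of these genes had an estimate of the same sign, none past adjustment. The layer 6 estimates included Enc1 at -0.81 ± 0.14, Cmss1 at -1.3 ± 0.21, St18 at 0.94 ± 0.37 and Gm32647 at 1.12 ± 0.34.

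**Figure D5:**
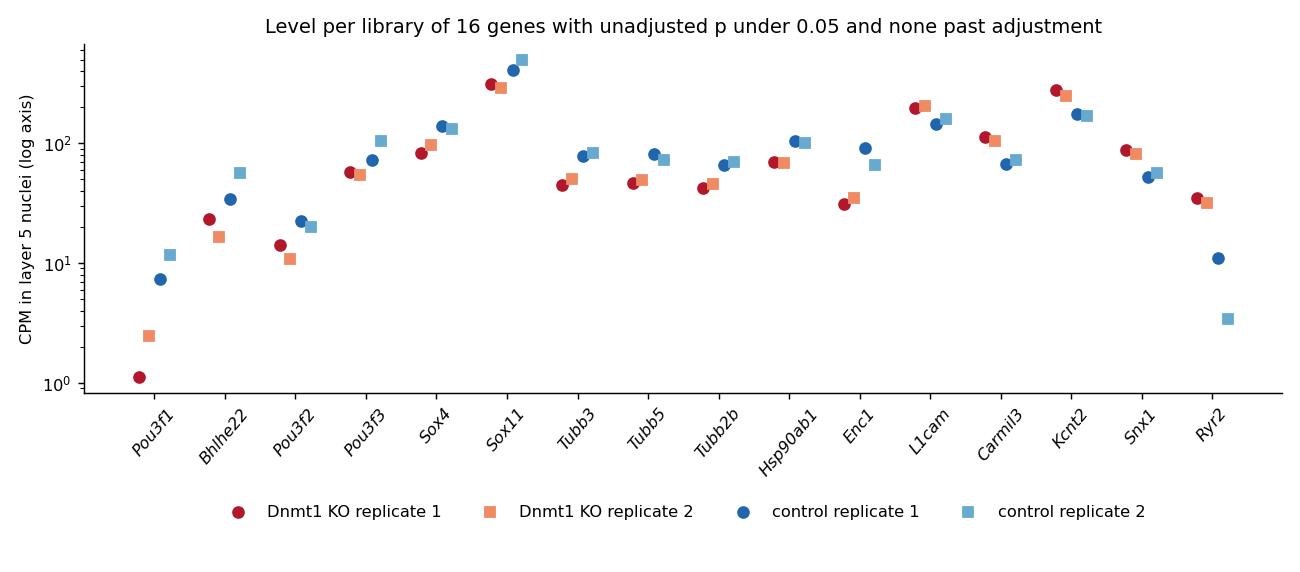
CPM (log axis) in the layer 5 nuclei of each library for 16 genes with an unadjusted p under 0.05. The 2 Dnmt1 KO libraries lie below both controls for the 3 Pou3f, 2 Sox and 3 Tubb genes plotted, Bhlhe22, Hsp90ab1 and Enc1 and above them for L1cam, Carmil3, Kcnt2, Snx1 and Ryr2, and no gene passed adjustment.

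Whether the genotype difference itself differed between layer 5 and layer 6 nuclei of the same brains was tested with an interaction term in edgeR, with library terms. It called 0 of 13954 genes (0%), with 540 at an unadjusted p under 0.05 and a smallest adjusted p of 0.454, and leaving out Dnmt1 KO replicate 1 or 2 moved the count to 5 or 42. DESeq2 was not run for this comparison. Without library terms the count at an unadjusted p under 0.05 was 392 and again 0 genes passed. Sema3e, a repulsive guidance cue, had the smallest p, with layer 5 levels of 4.45 and 20.8 CPM against 35.4 and 25 CPM for the controls and layer 6 levels of 15.8 and 51.1 against 28.9 and 17.7 CPM (interaction -1.81 ± 0.25, adjusted p = 0.454 in edgeR). Its libraries did not overlap in layer 5 and overlapped in layer 6. For Sv2b, a synaptic vesicle protein gene, the levels were 40.4 and 56.8 against 28.7 and 15.9 CPM in layer 5 and 101 and 124 against 144 and 98.8 CPM in layer 6 (1.26 ± 0.19, adjusted p = 0.454 in edgeR). These genes were picked after their values were seen. Ryr2 was 72 and 45.1 against 47.9 and 21 CPM in layer 6, where its genotype estimate was 0.78 ± 0.43.

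Several of the genes named stand at single loci of the GRCm39 build in GENCODE vM39. Ldb2 spans positions 44592425 to 44957292 of chromosome 5 on the minus strand and Zbtb20 positions 42696093 to 43462965 of chromosome 16 on the plus strand. Pou3f1 lies at 124550600 to 124554448 of chromosome 4, Bhlhe22 at 18108338 to 18111681 of chromosome 3 and Tubb3 at 124138163 to 124150092 of chromosome 8, all on the plus strand. The counts are per gene, with no division into exons and introns.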

How the data were processed

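Nuclei of 4 E16.5 brains were profiled by split-pool barcoding (Evercode). The authors deposited raw transcript counts per gene and barcode, unfiltered, made in the Trailmaker pipeline on mm39 (GRCm39); the submitters' processing notes name R 4.4.1 and Seurat 5.0.1.9001. The deposited tables hold 209159 to 328873 barcodes and 56884 genes per library. Barcodes with 1500 to 60000 transcripts were retained, 4905 to 12064 a library, and 0 of them exceeded 10% mitochondrial transcripts. The study states that window for reads, which was tried as an alternative. The gate was applied to raw counts, and counts were summed per library and population. Doublets called by scrublet (scanpy 1.11.5, expected rate 5%) were 3.01 to 7.16% of a library and were kept, with an alternative without them.

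Genotypes were compared on the sums with edgeR 4.0.16 in R 4.3.3 (filterByExpr, TMM, glmQLFit and glmQLFTest, group as the sole term, Benjamini-Hochberg adjustment), and shares with an exact permutation test over libraries (scipy 1.17.1). The interaction was fitted with library terms. The SE printed with an edgeR estimate is its absolute value divided by the square root of the test's F statistic. It is not a standard error taken from the fitted model. DESeq2 1.42.0 was an alternative. The test was checked on simulated counts. Level ratios used a pseudocount of 5 CPM and are descriptions, since the gate selected the nuclei.

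Genes named were the gate genes and markers, the 12 with the smallest p in each direction at a mean of at least 20 CPM with separated libraries (sex-linked markers left out), list members with an unadjusted p under 0.05 or the highest levels, and the leading 15 level ratios. Other list members with separated libraries and the genes of the Zbtb20 contrast were chosen after their values were seen, as was the alternative without Zbtb20-high nuclei. The gate, its members and the gene lists were chosen with earlier results of these data known. Each library is 1 brain, so the precision rests on 2 brains a genotype. The nuclei labelled by other gates were used for comparison alone. Some genes are not reported here.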

Additional observations from a re-analysis of the deposited data

How the results depend on the processing

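The count of 0 genotype calls in layer 5 nuclei by edgeR stayed at 0 with RLE scaling (329 at an unadjusted p under 0.05), DESeq2 (71), batch as a term (203, with control replicate 2 taken up by that term alone), the stricter gate (239), doublets left out (311), thinning (91) and without the Zbtb20-high nuclei (247). Without the low-count filter it was 78, of which 66 pass the filter and 40 have their highest level in Dnmt1 KO replicate 2; the cause was not tested. Leaving out 1 library gave 0 to 9. With the lone remaining library of a genotype assumed to vary like the others, the 7 genes without Dnmt1 KO replicate 1 included Dach1 (7.41 and 96.3 CPM against 6.1 and 3.8 CPM) and the 9 without Dnmt1 KO replicate 2 included Tafa1 (6.3 and 602 CPM against 287 and 362 CPM). With the replicate block the count was 0, with 309 at an unadjusted p under 0.05 and a smallest adjusted p of 0.5872. The numbers mark no shared animal but coincide with sex in both genotypes, so the block is also one for sex, and same-numbered libraries deviated together with a correlation of 0.0723 across 10191 genes, over 2 pairs. The interaction gave 131 calls without the filter and 0 to 42 with 1 library left out, and stayed at 0 under the other settings run.

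The genotype difference in the share of retained nuclei, 0.756 points, was 0.121 after thinning and 0.223 to 1.29 with 1 library left out. It was 1.95 with numerator and denominator both limited to excitatory nuclei. That in the share of layer 5 and layer 6 nuclei, 4.25 points, was 1.24 with the stricter gate, 0.715 after thinning and 7.01 with nuclei retained by mapped reads (38 layer 5 nuclei in control replicate 2). It was 3.31 with the Zbtb20-high nuclei taken out of the layer 5 nuclei alone, and 2.36 to 6.13 with 1 library left out. With the stricter gate the estimate was -0.41 for Trpc7 and 0.18 for 9130024F11Rik, against 0.87 and -1.57, and the other genes named for an unadjusted p under 0.05 kept their direction under the settings run. Reln, at 1.76, was -0.06 with the stricter gate, -0.14 without doublets and -0.51 without the Zbtb20-high nuclei. The medians of the layer 5 list (-0.88 to -0.06) and the cytoskeleton list (-0.16 to -0.09) were below 0 under each setting, while the medians of other lists changed sign across settings, from -0.41 to 0.97 for layer 6, -0.12 to 0.33 for fate regulators, -0.37 to 0.14 for upper-layer genes, -0.09 to 0.29 for axon guidance receptors, -0.29 to 0.18 for interneuron-signal receptors, -0.3 to 0.24 for glutamate synapse, -0.02 to 0.1 for ion channel and -0.09 to 0.14 for DNA methylation genes.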
